A study of Mus musculus with 2 samples.

Results

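Intermediate filaments are rope-like polymers that give a cell its mechanical strength, and in striated muscle desmin filaments tie the Z-discs of neighbouring myofibrils to one another and to the cell membrane, the desmosomes, the mitochondria and the nucleus. In the nucleus the lamins, members of the same protein superfamily, form a meshwork beneath the inner nuclear membrane. Mutations of the desmin gene and of the lamin A/C gene are known causes of dilated cardiomyopathy. The 8 genes described here, of 22882 gene symbols in the data, were chosen by symbol with results of this comparison known. They are Des, Vim, Synm, Nes, Krt8, Krt18, Lmna and Plec, and each stands on a single row in both files. The choice drew on the FPKM ratio between the genotypes, so the levels and ratios below describe the data and no test was run on them.

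Hearts of 23-day-old mice on a C57BL6/J background, of mixed sex, were compared between 2 genotypes. Control mice were Med1fl/fl, with both alleles of Med1, a subunit of the Mediator complex of transcription, carrying loxP sites around exons. The csMed1-/- mice carried the same floxed alleles together with a Cre transgene driven by the α-myosin heavy chain promoter, which acts in cardiomyocytes. By this design the other cells of the heart should keep Med1, which values from whole-heart RNA cannot show. RNA of 5 hearts was pooled for each genotype and 1 library was sequenced per pool. There are therefore no replicates, no value has an error, and differences between pools of one genotype cannot be estimated.

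Expression is given as FPKM, fragments per kilobase of transcript scaled to library depth, which allows genes to be compared within a library. The sources used here do not say how the scaling was done. A ratio is csMed1-/- FPKM over control FPKM, and a gene is called more than 2-fold higher or lower where neither library lists it at 0 and the larger of its values reached 1 FPKM. This left 10489 genes, with a median log2 ratio of -0.07, of which 13.6% were more than 2-fold higher and 18.0% more than 2-fold lower in the csMed1-/- library. Med1 itself, at 3.38 FPKM in control, had 0.412 in csMed1-/- heart (ratio 0.122). The spacing of low values, read against transcript length, gave 57900000 to 63000000 fragments for control and 77100000 to 83900000 for csMed1-/-, provided that mapped fragments set the scale, a depth ratio of 1.33. A comparison of low rows between the libraries gave 1.39. The cardiac genes Actc1 and Mb are listed at 0 in control against 9189 and 1040 FPKM in csMed1-/- heart, so a listed 0 may be a failed estimate. None of the 8 filament genes is listed at 0.

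Of the 8 genes, 6 met the filter, and 4 of these (Des, Synm, Nes and Lmna) were more than 2-fold higher in csMed1-/- heart. Vim and Plec were higher within 2-fold and none was more than 2-fold lower. Among all genes kept, 13.6% were more than 2-fold higher and 18.0% more than 2-fold lower. The ratio of Nes, 2.01, lay on the 2-fold line. The genes were chosen with these ratios known, so the count is a description and not a test. Krt8 and Krt18 stayed under 1 FPKM in both libraries and did not meet the filter. Because Synm passed the filter only through its csMed1-/- value, it could not have been counted as lower.

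**Figure D1:**
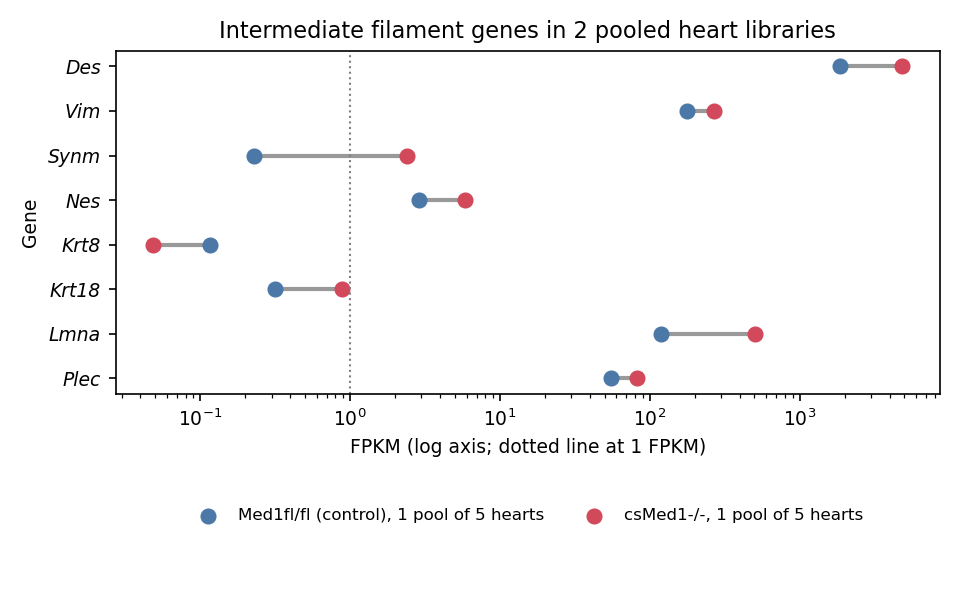
FPKM of the 8 genes (log axis) in the control pool (blue) and the csMed1-/- pool (red), 1 library each, with a grey line joining the 2 values of a gene and a dotted line at 1 FPKM. Of the 8 genes, 7 lay higher in the csMed1-/- library, Krt8 lay lower, and the longest line is that of Synm, from 0.228 to 2.42 FPKM.

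Des encodes desmin, the filament protein of muscle cells. The gene (Ensembl ENSMUSG00000026208.9) lies on the plus strand of chromosome 1, 75360329 to 75368579, in the GENCODE M21 annotation of GRCm38, the assembly also called mm10. Vim, on the plus strand of chromosome 2, 13573927 to 13582826, encodes vimentin, the related protein of fibroblasts, endothelial cells, smooth muscle and leukocytes. Synm, on the minus strand of chromosome 7, 67730160 to 67759742, encodes synemin, a large filament protein that joins desmin or vimentin filaments but does not form filaments alone. The 250 bases upstream of the RefSeq start sites of these 3 genes are shown because desmin and vimentin are close relatives that differed in ratio, and Synm had the largest ratio. Coordinates are GRCm38.p6, the sequences read 5′ to 3′ on the gene's strand, and capitals mark an E-box (CANNTG) or a TATA box (TATAAA).
Des, chr1:75360042-75360291, plus strand: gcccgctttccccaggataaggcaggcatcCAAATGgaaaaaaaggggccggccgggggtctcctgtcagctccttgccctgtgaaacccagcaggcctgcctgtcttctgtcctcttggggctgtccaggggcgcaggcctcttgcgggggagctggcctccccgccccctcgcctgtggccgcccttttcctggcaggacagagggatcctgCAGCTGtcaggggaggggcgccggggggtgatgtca
Vim, chr2:13574061-13574310, plus strand: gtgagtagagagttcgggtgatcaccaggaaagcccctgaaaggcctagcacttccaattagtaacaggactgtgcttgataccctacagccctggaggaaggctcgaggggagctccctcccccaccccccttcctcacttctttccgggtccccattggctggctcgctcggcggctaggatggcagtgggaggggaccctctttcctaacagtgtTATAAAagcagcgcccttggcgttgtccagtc
Synm, chr7:67759743-67759992, minus strand: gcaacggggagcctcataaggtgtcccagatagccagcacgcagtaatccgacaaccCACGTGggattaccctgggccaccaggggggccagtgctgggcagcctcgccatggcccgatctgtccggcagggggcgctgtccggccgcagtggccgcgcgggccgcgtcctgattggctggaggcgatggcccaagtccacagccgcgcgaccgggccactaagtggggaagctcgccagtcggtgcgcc

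An E-box, the motif read by myogenic and many other basic helix-loop-helix factors, was found at 2 places in the Des window and at 1 in the Synm window, and the Vim window held none. The windows of Krt8 and Krt18 held it as well, while that of Nes and the 2 windows of Lmna held none. It is common, and 66.2% of 32851 mouse windows of the same length hold it on either strand. The TATA box of Vim begins 32 bases before the start site, and 12.4% of all windows hold this motif. The window of Krt8, that of Krt18 and 1 of the 2 windows of Lmna held AGGTCA, a nuclear receptor half-site present in 14.0% of all windows. Searched on both strands, the MEF2 motif (in 2.92% of all windows) and the CArG box (1.47%) had no match in the windows of the 7 genes that the RefSeq table covers. Plec has no entry in it. A match of letters does not show that a factor binds there.

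Desmin messenger RNA was the most abundant of the 8 in both libraries. Des was at 1871 FPKM in the control pool and 4851 FPKM in the csMed1-/- pool, a 2.59-fold higher level (log2 ratio 1.37). Its rank among all 22882 symbols moved from 73 to 12. Of the 11 symbols above it in the csMed1-/- library, 1 was more than 2-fold higher than in control, and 1 more was listed at 0 there. Of the abundant genes, 21 of the 185 genes at 1000 FPKM or more in either library (11.4%) were more than 2-fold higher and 46 were more than 2-fold lower. An antisense gene, Gm15179, overlaps Des and was at 0.907 and 0.461 FPKM.

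Ratios between genes of the same library remove library scaling, and those of desmin to other muscle genes went in both directions. There were 0.820 Des transcripts per Tnnt2 (cardiac troponin T) transcript in control and 4.34 in csMed1-/- heart, on the FPKM scale. Set against Actn2, the α-actinin of the Z-disc to which desmin filaments are tethered, the ratio went from 1.45 to 2.56. Set against Dsp, desmoplakin, which anchors desmin at the intercalated disc, it went from 30.0 to 172.8. Tnnt2 and Dsp were themselves more than 2-fold lower in csMed1-/- heart. Against Flnc, the muscle filamin, desmin was lower, since the Flnc level per Des level went from 0.0628 to 0.0842.

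Most cardiomyocyte markers were lower in csMed1-/- heart. Of 8 listed markers, 5 met the filter and 4 of these (Tnnt2, Tnni3, Myl2 and Ryr2) were more than 2-fold lower. Of all genes kept, 18.0% were more than 2-fold lower. The sum of the 5 markers went from 50454 to 19513 FPKM. Myh6 has no row in the files used here, and Actc1 and Mb are the markers listed at 0 in control. In whole-heart RNA, fewer cells of a type and less RNA per cell cannot be told apart.

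Vim, in contrast to Des, differed little. It was at 178.5 FPKM in the control pool and 269.3 FPKM in the csMed1-/- pool, 1.51-fold higher (log2 ratio 0.59), and 76.6% of the genes kept had a lower ratio. Desmin thus exceeded vimentin 10.5-fold in control and 18.0-fold in csMed1-/- heart. Markers of cells that make vimentin moved in both directions. The 8 fibroblast markers summed to 503 FPKM in the control pool and 1193 FPKM in the csMed1-/- pool. Of them, 4 were more than 2-fold higher (Col1a1, Col1a2, Tcf21 and Postn) and 1 was more than 2-fold lower (Lum). Much of the sum was collagen, with Col1a1 at 129.5 and 501.7 FPKM and Col1a2 at 95.7 and 314.3 FPKM. Col3a1, Pdgfra and Dcn lay within 2-fold. The 7 endothelial markers summed to 419.5 and 318.4 FPKM, with 1 higher and 3 lower by more than 2-fold. The 7 smooth muscle and pericyte markers summed to 679 and 1118 FPKM, with 3 higher and 1 lower, and 622 FPKM of the latter sum was Cnn1. The 6 macrophage markers were all within 2-fold and summed to 155.8 and 109.4 FPKM. The 4 glial markers summed to 3.27 and 1.99 FPKM. Beside these marker counts, 13.6% of all genes kept were higher and 18.0% lower by more than 2-fold. The part of cell composition in the filament ratios was not tested.

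**Figure D2:**
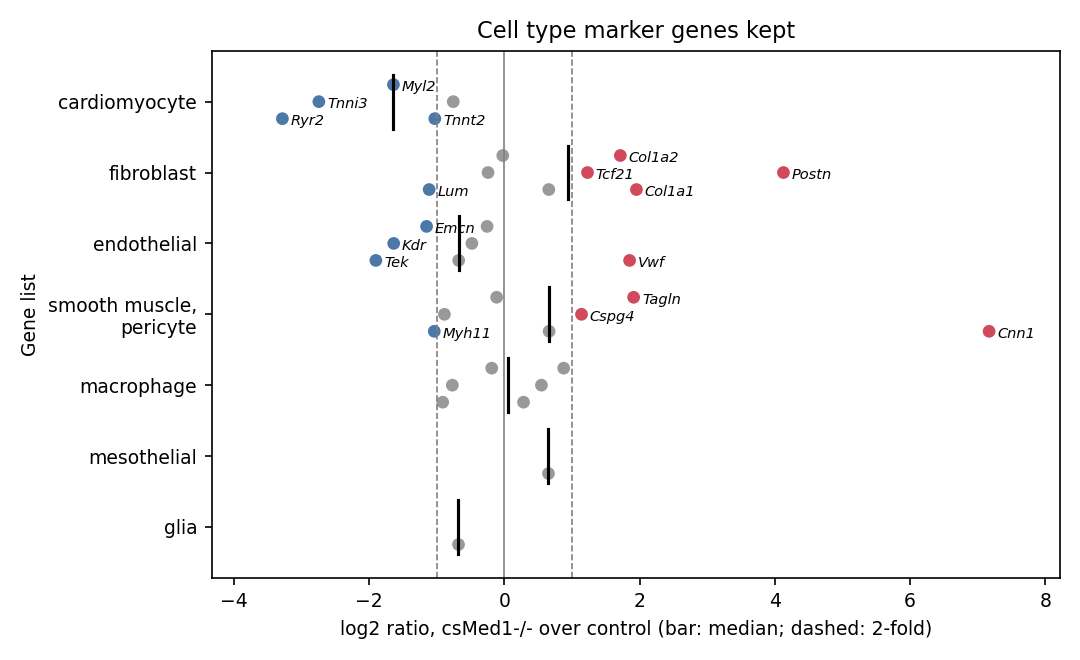
Log2 ratio (csMed1-/- over control) of each cell type marker that met the filter, by list, with the median as a black bar, dashed lines at 2-fold, and red and blue for genes past 2-fold. Cardiomyocyte markers lie to the left, with a median of -1.64, fibroblast markers mostly to the right, with a median of 0.94, and the 6 macrophage markers lie between the dashed lines.

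Transcripts of the large partner proteins, synemin and nestin, were few beside those of desmin and vimentin in both pools. Synm had 0.228 FPKM in the control pool and 2.42 FPKM in the csMed1-/- pool. That is a 10.6-fold higher level (log2 ratio 3.41) and the largest ratio of the 8 genes. Synm passed the filter only through its csMed1-/- value, and with 1 FPKM added to both values its log2 ratio was 1.48. At the estimated value of 1 read, the levels of Synm correspond to 61 to 109 reads in control and 864 to 1546 reads in csMed1-/- heart. The range comes from the length of its 3 transcripts matched to RefSeq, 4457 to 7818 bases. Even so, desmin transcripts outnumbered synemin transcripts 8221-fold in control and 2006-fold in csMed1-/- heart. Synm overlaps Ttc23, a gene on the opposite strand at 4.06 FPKM in the control pool and 2.41 FPKM in the csMed1-/- pool, and shares 5.16% of its 50-base stretches, the read length used, with other transcripts.

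Nes encodes nestin, a filament protein known from stem and progenitor cells, endothelium and regenerating muscle, and it co-assembles with vimentin or desmin. The gene (chromosome 3, 87971078 to 87980451, plus strand) was at 2.90 FPKM in the control pool and 5.83 FPKM in the csMed1-/- pool. Its ratio of 2.01 (log2 ratio 1.01) lay on the 2-fold line and came within 2-fold when 0.1 or 1 FPKM was added to both values or when the libraries were scaled to their sums without the 100 highest genes.

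**Figure D3:**
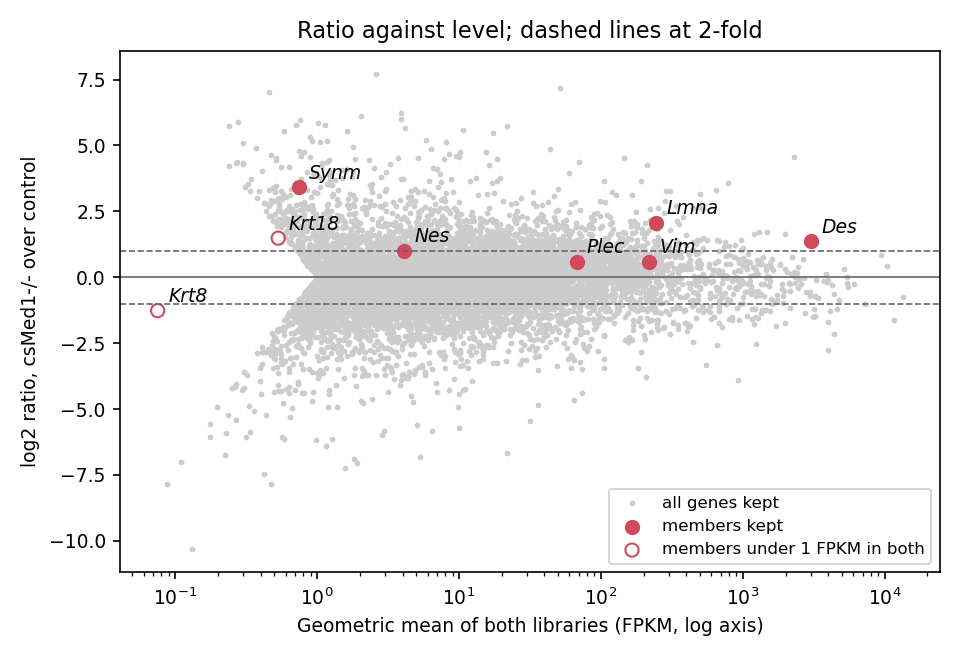
Log2 ratio (csMed1-/- over control) against the geometric mean FPKM of both libraries (log axis) for the 10489 genes kept (grey) and the filament genes (red, open where under 1 FPKM in both libraries), with dashed lines at 2-fold. Des lies at the far right above the upper line, Lmna above it at a lower level, Nes on it, and Vim and Plec at almost the same ratio beneath it.

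Krt8 and Krt18 encode the keratin pair of simple epithelia, in which keratin 8, a type II keratin, and keratin 18, a type I keratin, polymerise together. They lie 23.7 kb apart on chromosome 15, Krt8 on the minus strand (101996698 to 102004482) and Krt18 on the plus strand (102028180 to 102032027). Krt8 was at 0.117 FPKM in the control pool and 0.0485 FPKM in the csMed1-/- pool, about 13 and 7 reads at the estimated value of 1 read. So few reads give no firm ratio. Of its 50-base stretches, 29.7% also occur in other transcripts, those of the pseudogene Krt8-ps among them, so its level is uncertain. Krt18 was at 0.318 and 0.890 FPKM, about 25 and 92 reads, a ratio of 2.79 for a gene that did not meet the filter. The 5 mesothelial markers, genes of the epicardial cell layer, summed to 1.25 FPKM in the control pool and 2.14 FPKM in the csMed1-/- pool. Most of both sums was Wt1, at 1.19 and 1.86 FPKM, the only 1 of them that met the filter. Upk1b was listed at 0 in control.

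The other keratins set the pair in context. Of 48 keratin genes in the files, 23 were at 0 in both libraries and 3 reached 1 FPKM in either. Krt80, a type II keratin (chromosome 15, 101347444 to 101370162, minus strand), went from 1.54 FPKM in control to 74.1 FPKM in csMed1-/- heart (log2 ratio 5.58). The other 47 keratins together summed to 3.58 and 5.42 FPKM, so that almost all keratin transcript of the csMed1-/- heart came from this gene. Krt19, a type I keratin reported in striated muscle, was at 0.313 and 2.93 FPKM (3.22), and Krt222, a keratin-like gene, was at 1.89 and 0.387 FPKM (-2.29).

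Of the 57 further filament genes listed, 6 met the filter, with 2 higher (Krt80 and Krt19) and 2 lower (Krt222 and Sync) by more than 2-fold and a median log2 ratio of -0.06, against 13.6% and 18.0% of all genes kept. Krt19 passed the filter only through csMed1-/- and Krt222 only through control, so each could be called in 1 direction alone. Sync encodes syncoilin, a muscle filament protein that binds desmin and α-dystrobrevin, and was at 3.33 FPKM in the control pool and 1.32 FPKM in the csMed1-/- pool (log2 ratio -1.34). Of the summed FPKM of the 61 cytoplasmic filament genes, which was 2061 in control and 5210 in csMed1-/- heart, Des held 90.8% and 93.1%, Vim 8.66% and 5.17%, and Krt80 0.0749% and 1.42%.

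Lmna encodes lamins A and C, the A-type lamins, which arise from a single gene by alternative splicing. It lies on the minus strand of chromosome 3, 88480147 to 88509956. The level was 119.2 FPKM in the control pool and 501.7 FPKM in the csMed1-/- pool, 4.21-fold higher (log2 ratio 2.07). Of the 1223 genes at 100 FPKM or more in either library, 58 had a larger ratio. The deposited values are per gene, so lamin A and lamin C were not told apart.

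The B-type lamins lay within 2-fold. Lmnb1 was at 1.89 and 1.54 FPKM (log2 ratio -0.30) and Lmnb2, the most abundant further filament gene of the control library, at 3.97 and 4.49 FPKM (0.18). Lmna accordingly held 95.3% of the summed lamin FPKM in control and 98.8% in csMed1-/- heart, and its excess over Lmnb2 went from 30.0-fold to 111.7-fold. Of 16 listed partners of the lamina, 13 met the filter, with 2 higher and 1 lower by more than 2-fold and a median log2 ratio of -0.12, beside 13.6% higher and 18.0% lower among all genes kept, which does not set the list apart. The higher genes were Emd and Tmem43. Emd encodes emerin, an inner nuclear membrane protein that binds lamin A (76.4 to 154.0 FPKM, log2 ratio 1.01), and like Nes it lay on the 2-fold line. Tmem43 encodes LUMA, an emerin-binding membrane protein (23.1 to 54.8 FPKM, 1.25). Fnta, the shared α subunit of farnesyltransferase, which modifies prelamin A, was lower (31.8 to 12.7 FPKM, -1.32), while Zmpste24, the protease that matures prelamin A, was at 5.55 and 6.18 FPKM. Banf1, a chromatin-binding partner of lamins and emerin and the most abundant gene of this list in control, was at 199.2 and 133.7 FPKM (-0.58).

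Plec (chromosome 15, 76170974 to 76232574, minus strand) encodes plectin, a very large cytolinker that fastens desmin filaments to Z-discs, costameres, mitochondria and the nuclear envelope. It was at 55.0 FPKM in the control pool and 82.5 FPKM in the csMed1-/- pool, 1.501-fold higher (log2 ratio 0.59), which hardly differed from that of Vim. Per plectin transcript there were 34.0 desmin transcripts in control and 58.8 in csMed1-/- heart.

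Of 19 listed cytolinkers and attachment genes, 18 have a row and 16 met the filter, with 2 higher, 3 lower and 11 within 2-fold and a median log2 ratio of -0.11. These shares are near those of all genes kept, 13.6% higher and 18.0% lower, and do not set the list apart. The lower genes were Dsp, which encodes desmoplakin (62.3 to 28.1 FPKM, log2 ratio -1.15), and the desmosomal cadherins Dsg2 (6.93 to 2.77 FPKM, -1.32) and Dsc2 (2.31 to 0.735 FPKM, -1.65). Dsc2 passed the filter only through control and Dmd only through csMed1-/-, so each could be called in 1 direction alone. The desmosomal plaque genes Jup, at 105.2 and 137.3 FPKM, and Pkp2, at 42.1 and 31.1 FPKM, lay within 2-fold. The higher genes were Flnc, the muscle filamin of Z-discs and costameres (117.5 to 408.5 FPKM, 1.80), and Dmd, which encodes dystrophin, at lower levels (0.476 to 1.15 FPKM, 1.28). Actn2, the most abundant gene of the list, was at 1286 and 1892 FPKM (0.56).

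Of the 13 genes for desmin chaperones and turnover, 12 met the filter, with 1 higher, 1 lower and 10 within 2-fold and a median log2 ratio of 0.31. Neither share exceeds that of all genes kept, 13.6% higher and 18.0% lower. Hspb1, a small heat shock protein, was at 718.6 FPKM in the control pool and 2377 FPKM in the csMed1-/- pool (log2 ratio 1.73). Cryab, the small heat shock protein that chaperones desmin and whose mutation is known to cause desmin aggregation, was the most abundant gene of the list in control and lay within 2-fold, at 2358 and 1989 FPKM. Transcripts of Des per transcript of Cryab therefore went from 0.793 to 2.44. Trim63, which encodes the muscle ubiquitin ligase MuRF1, was lower (85.4 to 30.3 FPKM, -1.49), and Trim32, the ligase that marks desmin filaments for breakdown, was at 8.58 and 6.62 FPKM (-0.37).

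**Figure D4:**
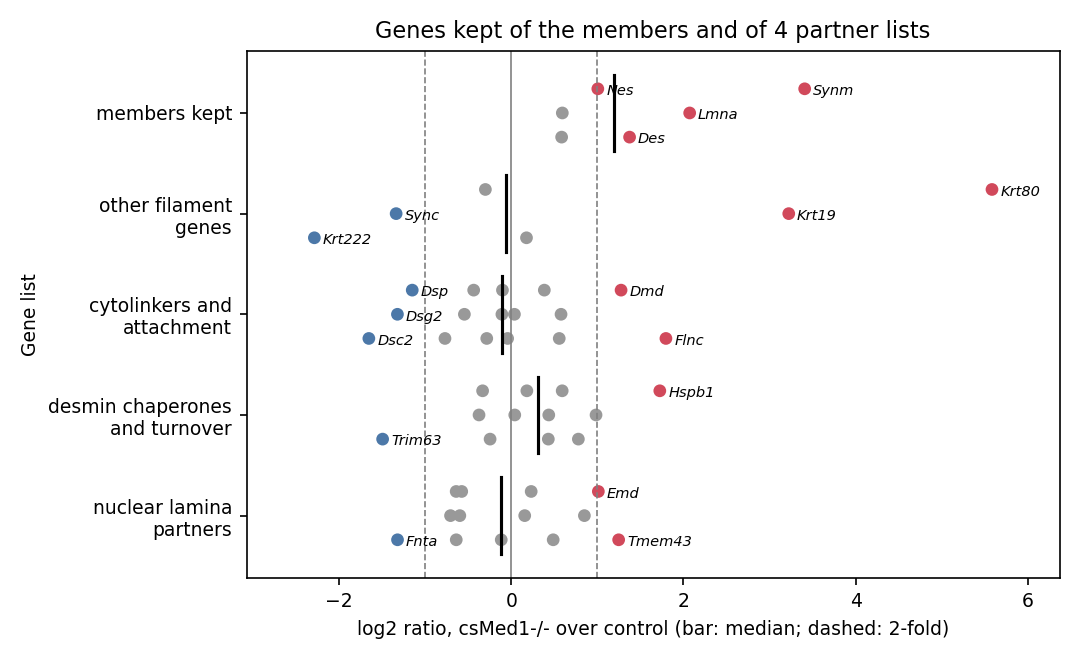
Log2 ratio (csMed1-/- over control) of the filament genes described here and of 4 further lists, for genes that met the filter, with the median of each list as a black bar, dashed lines at 2-fold, and red and blue for genes past 2-fold. The medians of the further lists lie between -0.12 and 0.31, with red and blue points in each of them.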

How the data were processed

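Each file holds the FPKM values of 1 library for 23424 rows. Per the paper's methods, oligo-dT selected RNA of 5 hearts per pool was read as directional 50-base single-end libraries. The authors aligned the reads to mm10 with TopHat, and Cufflinks and cuffdiff gave the deposited FPKM of known genes. The submitters' processing notes give TopHat2 2.0.8b and Cuffdiff 2.1.1, and also name STAR 2.4.0h, Bowtie2 and DESeq2 without a role. Library scaling and the strand setting of the counting are not given in the sources used here. Rows sharing a symbol were summed and ratios taken as deposited, with no pseudocount.

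The members and the gene lists were chosen with earlier results of these data known. The text names all 8 members and, in each further list, the genes past 2-fold and the most abundant gene in control. Other genes were chosen for their role after their values were seen. The value of 1 read was taken from the commonest product of FPKM and transcript length (less 200 bases) among low values of genes with a single RefSeq transcript. Gene positions and transcripts came from GENCODE M21, and promoter windows from RefSeq. The functions were tested on simulated data. Tables were handled in pandas 2.3.3 and numpy 2.4.6 under Python 3.11.15, densities came from scipy 1.17.1, and plots from matplotlib 3.10.9. The alternatives, 10 in all, changed the pseudocount, the filter, the library scaling, the treatment of rows or the threshold.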

Additional observations from a re-analysis of the deposited data

How the results depend on the processing

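No gene among the 8 changed direction under any alternative. Relative to 4 genes more than 2-fold higher and 0 lower, the count higher was 2 with a minimum of 10 FPKM in either library, which drops Nes and Synm, and 2 with a 4-fold threshold. It was 3 with 0.1 or 1 FPKM added and with sums that leave out the 100 highest genes, where Nes is lost, and 3 with 1 FPKM required in both libraries, where Synm is lost. Without the filter 5 were higher, Krt18 being added, and 1, Krt8, was lower. The share of all genes kept that was higher moved as well. It was 13.6% in the main setting, 15.1% with 10 FPKM in either library and 4.32% at the 4-fold threshold. With 0.1 and 1 FPKM added it was 13.2% and 10.3%, and with sums that leave out the 100 highest genes 13.4%. It was 11.3% with 1 FPKM required in both libraries. Without the filter 15.7% were higher and 20% lower. The median log2 ratio of the members kept, 1.19, became 1.18 with 0.1 FPKM added, 1.09 with 1 FPKM added, 1.01 with 1 FPKM required in both libraries, 0.984 with 10 FPKM required in either, 1.26 when centred on the median, 1.24 with scaling to the 75th percentile, and 1.18 with sums that leave out the 100 highest genes. For single genes, 59 of the recomputed ratios kept their side of the 2-fold line and 6 came within it, those of Nes (0.981, 0.807 and 0.992), Krt8 (-0.545 and -0.091) and Krt18 (0.519). With 1 FPKM added, Synm went from 3.41 to 1.48. No paired analysis was possible because each genotype has 1 library, and for the same reason no replicate could be left out.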

Other observations

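The protein-coding genes nearest to the filament genes on the chromosome did not share their ratios as a rule. Speg, a striated muscle kinase gene that begins 6.72 kb beyond Des, was at 47.7 FPKM in the control pool and 18.6 FPKM in the csMed1-/- pool (log2 ratio -1.36), opposite in sign to Des, and Dnpep on the other side was at 165.7 and 197.5 FPKM (0.25). Sema4a, on one side of Lmna at 19.0 kb, was at 3.08 and 1.15 FPKM (-1.42), and Mex3a on the other side at 0.106 and 0.0807 FPKM. Grina, 14.2 kb from Plec, was at 108.1 and 226.7 FPKM (1.07), and Nrbp2, 79.3 kb away on the other side, was at 7.49 and 5.91 FPKM (-0.34). Igf1r, the gene of the IGF-1 receptor, lies 193 kb from Synm and was at 1.64 and 8.12 FPKM (2.31). Lrrc28, 84.9 kb from Synm on the other side, was at 10.5 and 9.16 FPKM (-0.20).

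Of the neighbours of Krt80, the gene 6030408B16Rik, 50 kb away, was at 1.08 FPKM in the control pool and 24.5 FPKM in the csMed1-/- pool (log2 ratio 4.51), and Krt7, 40.9 kb away on the other side, was at 0.0124 and 0.170 FPKM, under the 1 FPKM minimum in both libraries. These neighbours were looked up after the filament values were seen, no replicate exists for any of them, and whether the locus as a whole differs was not tested.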
